A study of Mus musculus with 36 samples.

Results

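ChIP-seq islands of H3K36me2 (dimethylation of histone H3) and of H2AK119ub1 (ubiquitylation of histone H2A) were set against each other in control mice. The libraries were all those labelled Ctrl for either mark: 8 of the 36 samples of the series, and 8 of the 24 with an island file. They comprised 2 libraries per mark from P0 hippocampus and 2 per mark from P0 neurospheres, in which neural progenitors are grown as floating clusters. Ctrl was given as Kdm2b fl/+ or Kdm2b fl/fl, so that every control carried at least 1 floxed Kdm2b allele, the labels named no Cre for Ctrl, and they did not say which animal had which genotype or how many were pooled. The rest of the series holds H3K27me3 (trimethylation of histone H3), inputs, and the conditional knockout (cKO), labelled Kdm2bEmx1-delta-CxxC, in which Emx1-Cre removed the CxxC zinc finger of KDM2B. Emx1-Cre is active in the dorsal forebrain lineage and not in every cell of the hippocampus. The question was where the marks lie relative to each other before any deletion. Tests over 2 libraries per mark measure the spread between these samples, which may be technical, since the labels do not tie libraries to separate animals.

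H2AK119ub1 is placed by the Polycomb complex PRC1 and is found at silent developmental genes, usually together with H3K27me3, the product of PRC2. KDM2B is a subunit of a variant PRC1 and binds CpGs that lack methylation with its CxxC domain, and its long isoform also removes H3K36me2. H3K36me2 is placed by the NSD and ASH1L enzymes over broad intergenic and genic territory, and methylation of H3 at this residue inhibits PRC2.

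An island is a run of 200 bp windows that the caller SICER joined because they held more reads than background. On autosomes the hippocampal H3K36me2 islands covered 160.9 Mb in replicate 1 and 114.5 Mb in replicate 2, and the H2AK119ub1 islands covered 44.9 Mb and 157.2 Mb. In neurospheres H3K36me2 covered 370.0 Mb and 431.1 Mb, and H2AK119ub1 318.5 Mb and 116.2 Mb. The H2AK119ub1 libraries thus stood apart from each other in both sources, in opposite order. Counts in islands were 996663 and 4214248 for hippocampal H2AK119ub1, 17315325 and 4647174 for neurosphere H2AK119ub1, 4492862 and 3106793 for hippocampal H3K36me2, and 20518511 and 19788367 for neurosphere H3K36me2. Those sums move with the called length and are not sequencing depths, which are unknown here. The labels list inputs of their own for hippocampal H3K36me2, apart from the other hippocampal inputs, and 1 set for neurospheres, so that mark and input set cannot be told apart in hippocampus.

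Promoters (2 kb on each side of the start of 20807 autosomal protein-coding genes) separated the marks in both sources. Enrichment was the percent of promoter bases inside islands relative to the percent over all assembled autosomes. For H3K36me2 the promoter enrichment in hippocampus was 0.296 in replicate 1 and 0.300 in replicate 2, with a mean of 0.298 ± 0.00324 (SD, n = 2). For H2AK119ub1 it was 1.55 and 2.05, with a mean of 1.80 ± 0.354 (SD, n = 2). H2AK119ub1 was therefore 5.98-fold more enriched than H3K36me2 at hippocampal promoters, a log2 difference (H3K36me2 minus H2AK119ub1) of -2.58. In neurospheres the promoter enrichment was 0.726 and 0.530 for H3K36me2 and 2.23 and 1.93 for H2AK119ub1, a 3.34-fold difference and a log2 difference of -1.74. The library values of the marks did not overlap at promoters in either source. A 2-sided exact permutation test of 2 libraries against 2 gave p = 0.333 in each source, the smallest it allows. Stratified over both sources (36 splits), the exact p was 0.0556, again the smallest it can give, and 0.167 after adjustment over the 3 compartments.

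Outside promoters the marks were closer, with no overlap of their library values in hippocampus and overlapping values in neurospheres. Gene bodies (39.5% of the autosomes) had an H3K36me2 enrichment of 0.917 and 0.933 in hippocampus, below that of H2AK119ub1 at 1.15 and 1.20. In neurospheres H3K36me2 had 1.39 and 1.32 there, and H2AK119ub1 1.34 and 1.14. The neurosphere values of the marks overlapped, with a log2 difference of 0.13 (exact permutation p = 0.667). Intergenic DNA (57.3% of the autosomes) had an H3K36me2 enrichment of 1.10 and 1.09 in hippocampus against 0.869 and 0.802 for H2AK119ub1, and groups that overlapped in neurospheres (0.746 and 0.806 against 0.698 and 0.852, exact permutation p = 1). The stratified exact p was 0.278 for gene bodies and 0.167 for intergenic DNA. A direct test of whether the difference between marks differed by source, permuting source within mark (36 splits), gave an exact p of 0.278 at promoters, 0.222 in gene bodies and 0.278 in intergenic DNA, so a difference between sources was not shown.

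**Figure D1:**
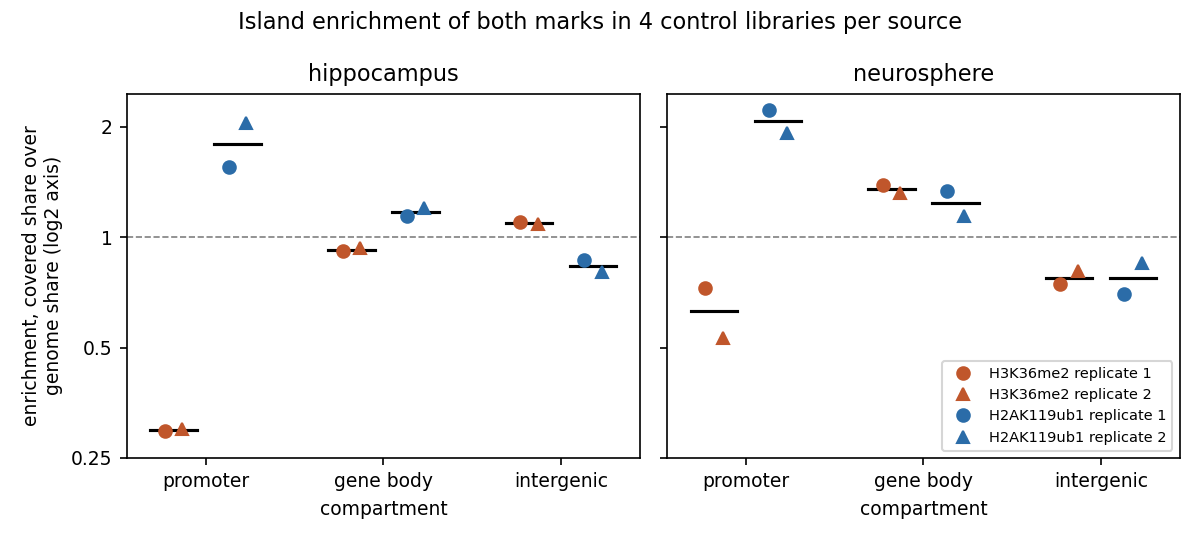
Enrichment of H3K36me2 and H2AK119ub1 islands (y axis, covered share of the compartment over covered share of the autosomes, log2 axis) in promoters, gene bodies and intergenic DNA, with 1 point per library, a bar at the mean and a dashed line at 1. At promoters the H3K36me2 points lie between 0.296 and 0.726 and the H2AK119ub1 points between 1.55 and 2.23.

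The promoter gap of H3K36me2 was centered on the start site and was seen at CpG-rich promoters. CpG-rich promoters (9506 of 20807) were those where the 1 kb around the start exceeded 50% GC and held CpGs at more than 0.6 of the expected frequency. In hippocampus H3K36me2 covered 0.0648% and 0.0697% of their bases in the bin centered 0.25 kb upstream of the start, against 4.81% and 3.47% at 9.75 kb upstream. H2AK119ub1 covered 2.64% and 14.6% of the same upstream bin, against 1.93% and 7.02% at 9.75 kb upstream, and 4.31% and 16.9% of the bin 2.25 kb downstream. Neurosphere H3K36me2 covered 5.38% and 2.92% in that bin against 17.2% and 17.9% at 9.75 kb. At the 11301 CpG-poor promoters H3K36me2 covered 2.97% and 2.17% in hippocampus and 14.5% and 11.8% in neurospheres in the same bin, so no comparable gap was present. H2AK119ub1 was not highest in the bins next to CpG-rich starts in either source. In neurospheres replicate 2 covered 7.96% just upstream of the start against 10.5% at 9.75 kb, and replicate 1 covered 27.2% against 29.5%.

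**Figure D2:**
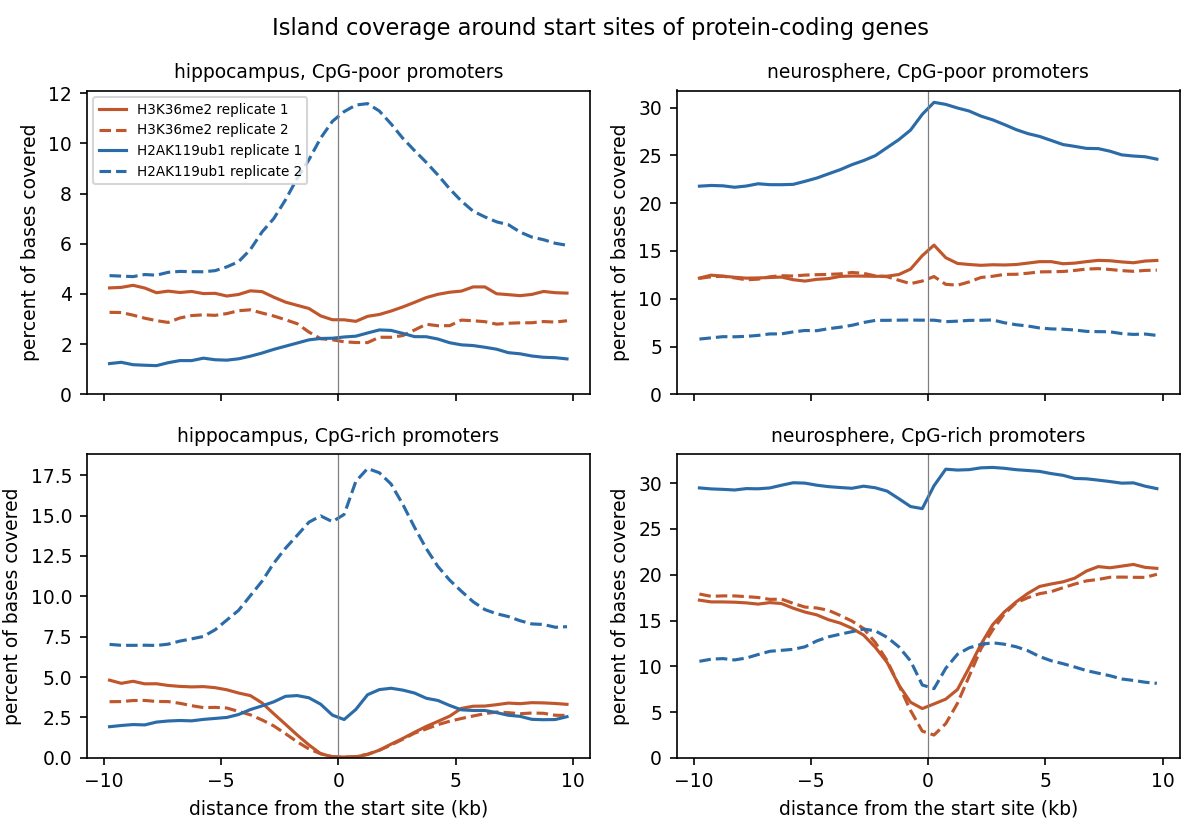
Percent of bases covered by islands (y axis) by distance from the start site (x axis, kb, negative upstream) in 500 bp bins, for CpG-poor (top) and CpG-rich (bottom) promoters. H3K36me2 lines drop towards the start at CpG-rich promoters, to 0.0648% and 0.0697% in the hippocampal bin centered 0.25 kb upstream.

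Where each mark was called on its own, shared bases exceeded the product of the covered shares in most library pairs. Each H3K36me2 library was paired with each H2AK119ub1 library of its source, giving 4 pairs that share libraries and carry no test. Islands bridge gaps of up to 600 bp, so a shared base does not show both marks on one nucleosome, nor in one cell. Over the whole autosomes the shared bases were 1.28 to 1.40 times the expectation in hippocampus, with a mean of 1.35 ± 0.0588 (SD, 4 pairs), and 1.75 to 2.87 times in neurospheres, with a mean of 2.14 ± 0.510. In hippocampus the shared length was between 2.75 Mb and 14.8 Mb, or 2.40% to 9.18% of the H3K36me2 bases and 6.13% to 9.40% of the H2AK119ub1 bases. In neurospheres it was between 32.9 Mb and 141.2 Mb, or 8.47% to 38.1% of the H3K36me2 bases and 28.3% to 44.3% of the H2AK119ub1 bases. Promoters gave the lowest mean ratio in both sources, though not in every pair nor once GC content was taken into account. Hippocampal promoters gave 0.932 to 1.35, on both sides of 1, and the mean log2 ratio of 0.15 became -0.075 without H2AK119ub1 replicate 1. Neurosphere promoters gave 1.01 to 1.95. Gene bodies gave 1.34 to 1.49 in hippocampus and 1.56 to 2.32 in neurospheres, and intergenic DNA 1.29 to 1.46 and 1.98 to 3.58. By chromosome, all 4 pairs were above 1 on 16 of 19 autosomes in hippocampus and on 19 of 19 in neurospheres.

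These ratios were small beside those of replicates and of H2AK119ub1 with H3K27me3. Replicates of one mark overlapped 4.10 to 7.58 times more than the product of their shares, and H2AK119ub1 overlapped H3K27me3 5.24 to 9.14 times more in hippocampus and 4.01 to 5.75 times more in neurospheres. H3K36me2 overlapped H3K27me3 at 0.203 to 0.336 of the expectation in hippocampus and at 0.736 to 1.05 in neurospheres.

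The direction of the overlap depended on what counted as the expected amount. Both marks were more frequent in GC-rich DNA. From the lowest to the highest GC quintile of 5 kb windows, hippocampal H3K36me2 coverage went from 1.20% to 1.46% up to 7.26% to 10.3%, and H2AK119ub1 coverage from 0.140% to 0.174% up to 4.87% to 21.9%. Neurosphere coverage went from 0.849% to 1.52% up to 33.4% to 37.4% for H3K36me2, and from 0.0361% to 0.120% up to 13.6% to 51.4% for H2AK119ub1. In hippocampus H3K36me2 coverage was slightly higher, 7.33% to 10.6%, in the quintile just below the highest. When the expectation was summed within the 5 GC classes, the mean ratio over the autosomes was 0.937 ± 0.0386 (SD, 4 pairs) in hippocampus and 1.11 ± 0.159 in neurospheres. The hippocampal pairs then spanned 0.897 to 0.985 and the neurosphere pairs 0.945 to 1.30, and promoters had means of 0.995 and 1.14 against 0.842 and 1.11 in intergenic DNA. Within the 2 most GC-rich classes the hippocampal ratio was 0.850 to 1.01, and the neurosphere ratio 0.897 to 1.70. In the GC-poorest class the neurosphere ratio reached 13.5 for a pair with H2AK119ub1 replicate 1, the mark covering at most 0.120% of the bases there in either library. Whether GC content acts on the marks or on island calling was not tested. Taking as the universe only the 1306.1 Mb with an island in at least 1 of the 24 libraries, the mean log2 ratio was -0.45 in hippocampus and 0.20 in neurospheres.

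**Figure D3:**
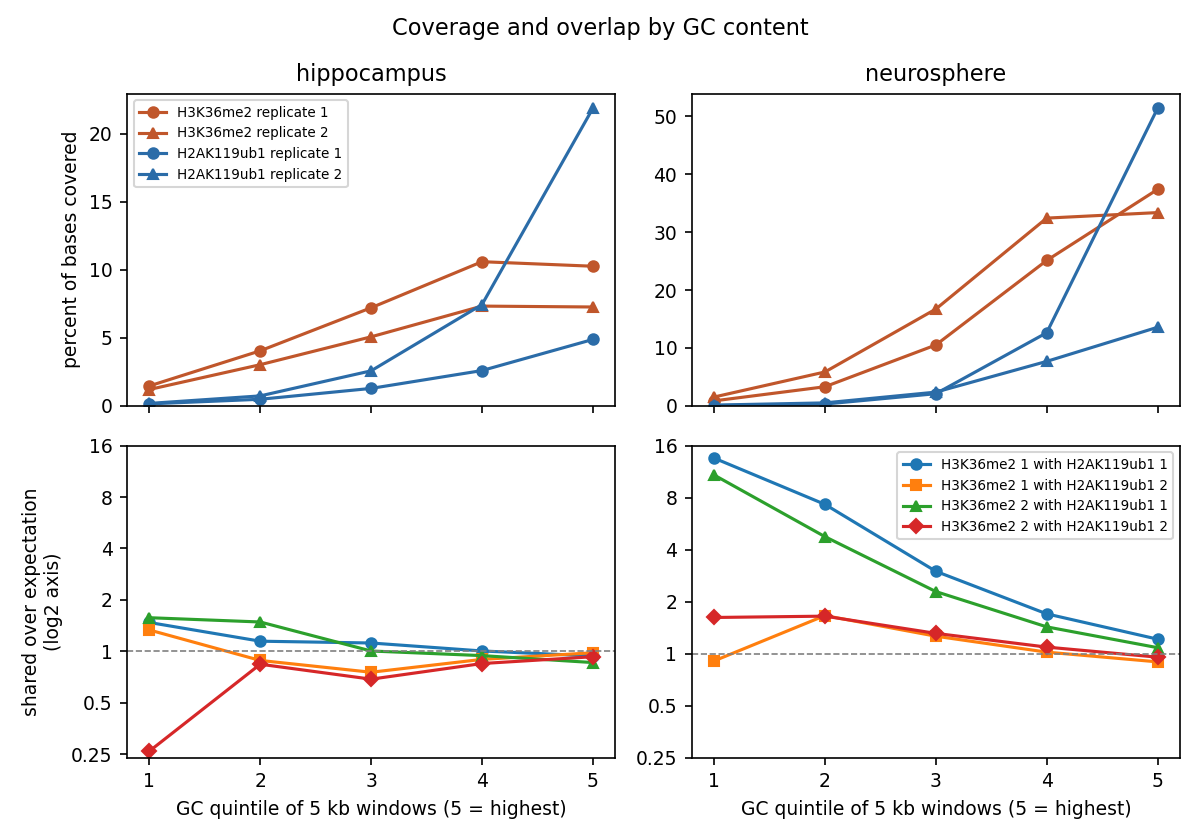
Coverage of each library (top, percent of bases) and overlap of each of the 4 library pairs (bottom, shared bases over expectation, log2 axis, dashed line at 1) by GC quintile of 5 kb windows. Coverage is higher in the highest than in the lowest GC quintile in every library, and the pair ratios in the 2 highest quintiles lie between 0.850 and 1.70 over both sources.

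Restricting each mark to bases called in both of its libraries gave ratios on opposite sides of 1 in the sources. In hippocampus H3K36me2 then covered 32.9 Mb and H2AK119ub1 22.3 Mb, and they shared 0.234 Mb where 0.307 Mb was expected, a ratio of 0.762. At hippocampal promoters 0.002 Mb was shared, a ratio of 0.296, in gene bodies the ratio was 0.941, and in intergenic DNA 0.745. In neurospheres H3K36me2 covered 273.1 Mb and H2AK119ub1 75.2 Mb, sharing 17.8 Mb where 8.57 Mb was expected, a ratio of 2.08. The neurosphere ratio was 1.15 at promoters, 1.88 in gene bodies and 2.35 in intergenic DNA. With the expectation also summed within GC classes, the ratios over the autosomes were 0.439 in hippocampus and 0.975 in neurospheres. Each of these values rests on 1 set of bases per source and has no replicate check.

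The agreement of the H2AK119ub1 libraries moved with the overlap. In hippocampus H3K36me2 covered 6.77% and 4.05% of the bases in both H2AK119ub1 libraries, 11.9% and 8.18% of those in replicate 1 alone, and 9.83% and 6.62% of those in replicate 2 alone. In neurospheres it covered 32.8% and 31.6% of the bases in both, 47.9% and 40.2% of the 243.3 Mb in replicate 1 alone, and 20.1% and 31.2% of those in replicate 2 alone. H3K27me3 covered 47.5% and 35.1% of the hippocampal bases in both H2AK119ub1 libraries against 16.7% and 6.76% of those in replicate 1 alone and 23.6% and 13.7% of those in replicate 2 alone. In neurospheres it covered 72.1% and 72.2% of the bases in both, 31.4% and 31.7% of those in replicate 1 alone and 34.5% and 29.1% of those in replicate 2 alone. Island calls that the second H2AK119ub1 library lacked thus carried more H3K36me2 and less H3K27me3 in replicate 1 of both sources, and neurosphere bases of replicate 2 alone had less of both than bases in both libraries.

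**Figure D4:**
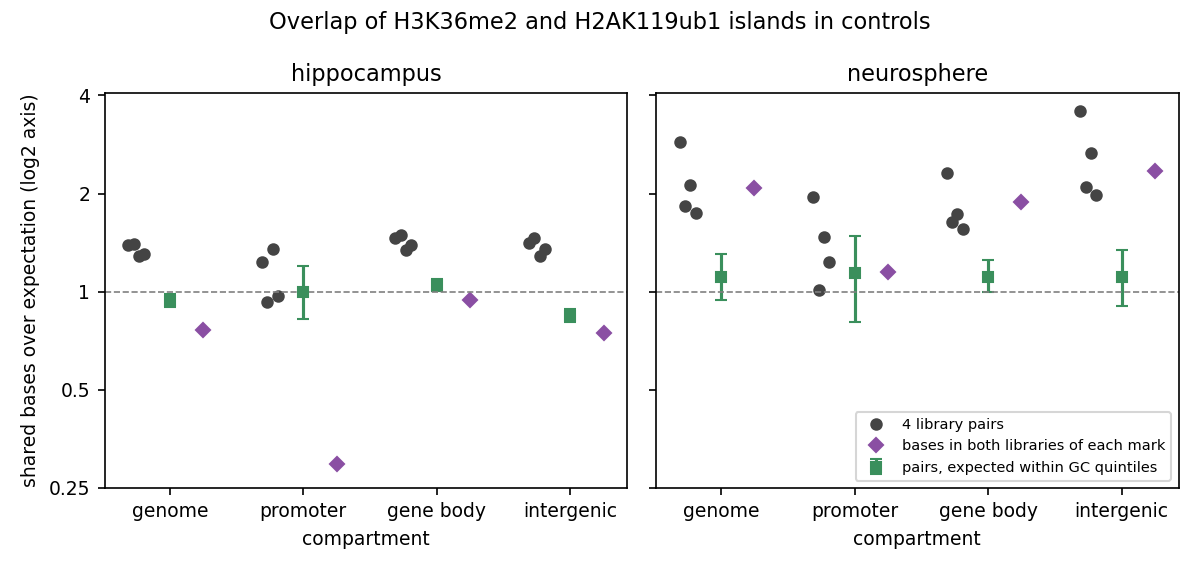
Shared bases of H3K36me2 and H2AK119ub1 over expectation (y axis, log2 axis, dashed line at 1) by compartment, as 4 library pairs (circles), as the mean of those pairs with the expectation summed within GC quintiles (squares, bars from lowest to highest pair) and for bases called in both libraries of each mark (diamonds). The diamond over the autosomes lies at 0.762 in hippocampus and 2.08 in neurospheres.

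H3K27me3 took up a smaller part of the bases with both marks than of those with H2AK119ub1 alone, in every library. It covered 7.52% and 1.97% of the hippocampal bases with both marks in all 4 libraries, 51.3% and 38.4% of those with H2AK119ub1 in both of its libraries and H3K36me2 in neither, and 0.638% and 0.225% of those with H3K36me2 alone. The same shares in neurospheres were 42.1% and 45.7%, 87.7% and 86.3%, and 1.72% and 2.27%. H3K27me3 at bases with both marks was thus between the single-mark values in each library, and was 4.11 and 4.58 times its genome share in neurospheres against 1.46 and 0.862 times in hippocampus. GC content was 49.5% for both marks, 48.5% for H2AK119ub1 alone and 45.6% for H3K36me2 alone in hippocampus, against 41.9% for all assembled bases. CpG dinucleotides numbered 11.0, 15.9 and 8.90 per kb in these hippocampal classes, and 12.7, 15.3 and 11.8 per kb in the neurosphere classes.

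Inside H2AK119ub1 regions, H3K36me2 coverage was lower with distance from the edge in hippocampus, and stayed above its genome share in neurospheres. Regions were those called in both H2AK119ub1 libraries over at least 2 kb. At 0.25 kb inside the edges of 5366 such hippocampal regions H3K36me2 had 1.01 and 0.857 times its genome share, and at 2.25 kb inside 0.499 and 0.394 times (483 regions). At 4.75 kb inside it had 0.196 times in replicate 1 and was listed at 0 in replicate 2, over 38 regions. H3K27me3 in the same bins went up, from 8.87 and 14.4 times its genome share at 0.25 kb to 17.6 and 40.1 times at 4.75 kb. In neurospheres H3K36me2 stood at 2.11 and 1.98 times its genome share 0.25 kb inside 10770 regions and at 2.06 and 1.40 times at 4.75 kb (1534 regions). Seen from H3K36me2 regions of neurospheres, H2AK119ub1 went from 2.13 and 1.77 times its genome share at 0.25 kb inside to 4.89 and 2.27 times at 4.75 kb inside, over 46993 and 3754 regions. The rise was steep in H2AK119ub1 replicate 1 and slight in replicate 2. Inside hippocampal H3K36me2 regions H2AK119ub1 had 1.30 and 1.47 times its genome share at 0.25 kb (7802 regions). At 2.25 kb inside it had 1.79 and 1.21 times (244 regions), without a common direction. Regions that reach further inside are longer, so the bins do not hold the same regions.

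**Figure D5:**
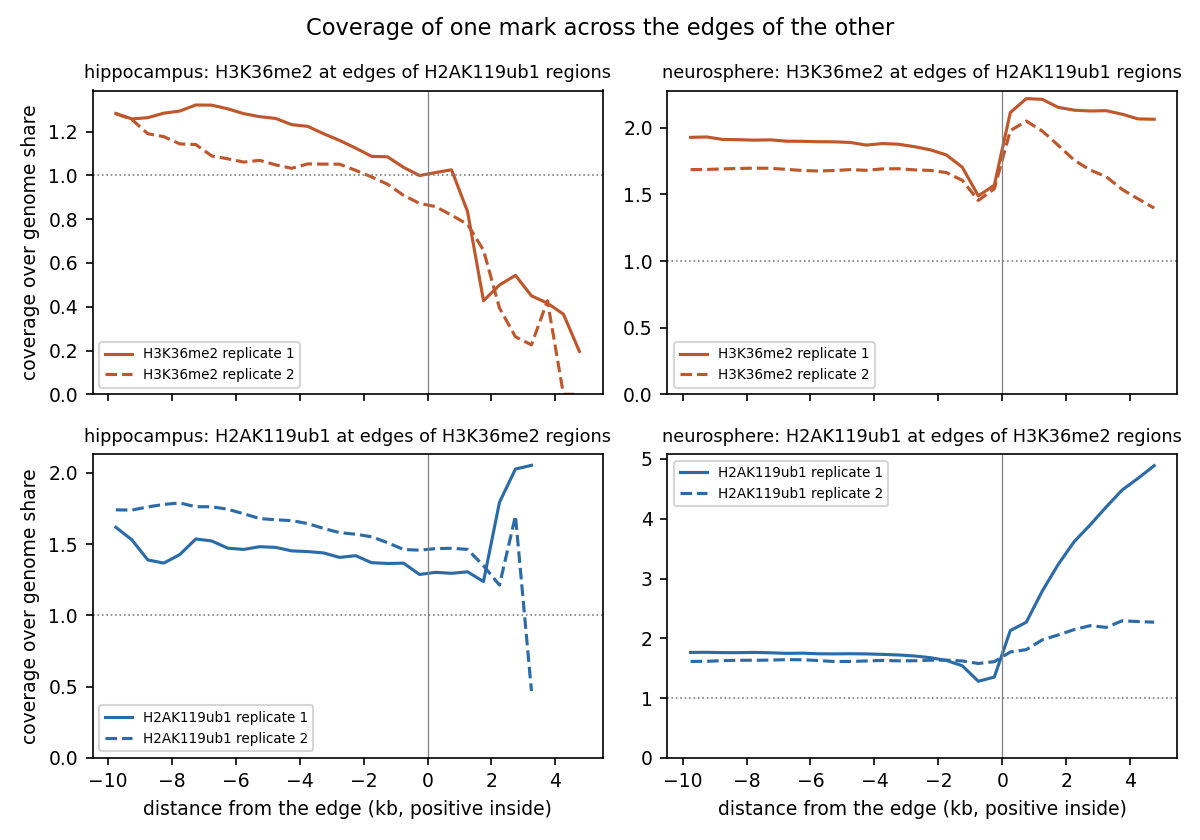
Coverage of one mark (y axis, over its genome share, dotted line at 1) by distance from the edge of regions called in both libraries of the other mark (x axis, kb, positive inside, bins with at least 20 regions). Hippocampal H3K36me2 goes from 1.01 and 0.857 at 0.25 kb inside H2AK119ub1 regions to 0.196 and 0 at 4.75 kb, and the neurosphere lines stay above 1.

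The regions under both marks in all 4 libraries were short in hippocampus and much longer in neurospheres. There were 256 in hippocampus, with a median of 800 bp and a longest of 3.4 kb, and 6872 in neurospheres, with a median of 1800 bp and a longest of 45.6 kb. In hippocampus the longest lay in intergenic DNA, 43.7 kb from the start of Pitx1, a homeobox factor of limb and pituitary. The next lay within Notch1, the receptor that maintains neural progenitors, at chr2:26495201-26498200, and others lay within Cfap61 and Disc1. In neurospheres the longest was within Vav2, at chr2:27355201-27400800, followed by 45.2 kb within Gse1 (where Gm20388 overlaps it) and 44.2 kb within Shb, an SH2-domain adaptor. The central 300 bases of 3 of these regions are given from the GRCm38.p6 (mm10) genome, with each CG in capitals, to show the kind of DNA that carried both marks. They held 9, 2 and 3 CGs, in the order given.
Hippocampus, intergenic, chr13:55879751-55880050, plus strand: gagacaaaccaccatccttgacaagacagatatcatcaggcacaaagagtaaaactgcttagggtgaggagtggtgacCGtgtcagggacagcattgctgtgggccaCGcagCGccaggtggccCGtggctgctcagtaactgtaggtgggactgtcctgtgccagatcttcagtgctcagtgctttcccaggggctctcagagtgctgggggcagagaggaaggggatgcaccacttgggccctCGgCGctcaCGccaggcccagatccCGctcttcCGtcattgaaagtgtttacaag
Hippocampus, Notch1, chr2:26496551-26496850, plus strand: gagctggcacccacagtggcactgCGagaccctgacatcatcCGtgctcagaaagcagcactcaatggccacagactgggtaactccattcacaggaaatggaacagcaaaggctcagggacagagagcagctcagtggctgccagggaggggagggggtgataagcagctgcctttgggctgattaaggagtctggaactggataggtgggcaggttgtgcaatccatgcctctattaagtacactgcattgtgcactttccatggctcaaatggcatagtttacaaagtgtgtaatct
Neurosphere, Vav2, chr2:27377851-27378150, plus strand: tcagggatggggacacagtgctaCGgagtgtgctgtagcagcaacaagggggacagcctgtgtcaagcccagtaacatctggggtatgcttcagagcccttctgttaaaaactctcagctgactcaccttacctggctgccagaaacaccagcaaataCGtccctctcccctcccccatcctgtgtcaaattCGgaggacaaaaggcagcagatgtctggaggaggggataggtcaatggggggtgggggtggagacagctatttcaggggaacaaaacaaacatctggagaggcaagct

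At the level of genes, 14 of 20807 had both marks at the promoter in all 4 hippocampal libraries (0.0673%). H3K36me2 was present in both libraries at 282 promoters (1.36%) and H2AK119ub1 at 1027 (4.94%), and the product of these shares is 13.9 genes. In 4 of the 14 the marks shared bases in every library pair. Leaving out a library can only raise such a count: it became 68 and 29 without H2AK119ub1 replicate 1 or 2, and 52 and 44 without H3K36me2 replicate 2 or 1. None of the 14 promoters was CpG-rich (0%), against 45.7% of all promoters. The share was 62.9% of the 1013 promoters with H2AK119ub1 in both libraries but not H3K36me2. It was 11.2% of the 268 with H3K36me2 in both libraries but not H2AK119ub1. In the gene classes here and below, a mark counted as absent unless both of its libraries had it. A single library may still carry it there. Ubl4b (ENSMUSG00000055891.7, chr3:107553687-107555073), a ubiquitin-like gene, had the longest shared stretch: H3K36me2 covered 83.2% and 68.2% of its promoter, H2AK119ub1 45.0% and 88.2%, and 1200 to 3328 bp were shared. Pmp22, which encodes a myelin protein, had 45.5% and 5.48% H3K36me2 and 60.5% and 99.5% H2AK119ub1, with 200 to 1819 bp shared. Mmp2, a matrix metalloproteinase, and Pla2r1, a phospholipase A2 receptor, were the others that shared bases in all pairs, at least 310 bp and 200 bp. H3K27me3 was present in both of its libraries at 3 of the 14 (21.4%), at 68.7% of the promoters with H2AK119ub1 and not H3K36me2, and at 11.0% of all promoters.

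Promoter sequences (250 bases before to 50 after the RefSeq start, GRCm38.p6) are shown for genes of each class, whose CpG content varied within the classes. Ubl4b and Pmp22 had both marks called at the promoter in hippocampus, and Prelp in hippocampus and in neurospheres. A promoter call needs 1 bp within 2 kb of the start. The printed bases of these genes therefore need not lie under both marks in hippocampus. There H3K36me2 replicate 2 covered 5.48% of the Pmp22 promoter and 9.7% of the Prelp promoter. Prelp shared 0 promoter bp in its lowest hippocampal pair. Hmx2 and Lhx1, homeobox genes of the developing nervous system, carried only H2AK119ub1 in hippocampus. Gsn and Aqp1 carried both in neurospheres. Each CG is in capitals.
Ubl4b, chr3:107555024-107555323, minus strand: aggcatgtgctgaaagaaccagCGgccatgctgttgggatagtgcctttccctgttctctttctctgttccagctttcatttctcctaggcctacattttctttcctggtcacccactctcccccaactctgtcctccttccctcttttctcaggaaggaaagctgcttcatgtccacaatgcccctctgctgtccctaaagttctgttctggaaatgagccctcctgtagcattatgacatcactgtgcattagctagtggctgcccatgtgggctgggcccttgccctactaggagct
Pmp22, chr11:63128732-63129031, plus strand: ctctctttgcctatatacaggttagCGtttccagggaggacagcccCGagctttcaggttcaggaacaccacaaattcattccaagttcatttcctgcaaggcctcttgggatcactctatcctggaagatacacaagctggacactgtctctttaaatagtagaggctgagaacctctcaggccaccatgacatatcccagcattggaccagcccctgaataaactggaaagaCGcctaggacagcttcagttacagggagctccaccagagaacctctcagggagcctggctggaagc
Prelp, chr1:133921352-133921651, minus strand: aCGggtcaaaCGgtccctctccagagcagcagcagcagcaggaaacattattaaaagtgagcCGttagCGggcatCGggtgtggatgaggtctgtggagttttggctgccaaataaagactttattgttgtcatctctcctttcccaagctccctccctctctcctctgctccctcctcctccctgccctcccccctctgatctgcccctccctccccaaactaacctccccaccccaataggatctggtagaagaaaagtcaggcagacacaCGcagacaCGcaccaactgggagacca
Hmx2, chr7:131548507-131548806, plus strand: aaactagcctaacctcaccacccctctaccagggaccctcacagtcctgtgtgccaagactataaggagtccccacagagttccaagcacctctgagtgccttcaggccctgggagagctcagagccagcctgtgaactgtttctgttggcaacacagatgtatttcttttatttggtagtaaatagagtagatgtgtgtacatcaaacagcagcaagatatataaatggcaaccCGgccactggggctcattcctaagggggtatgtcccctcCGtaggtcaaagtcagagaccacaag
Lhx1, chr11:84525485-84525784, minus strand: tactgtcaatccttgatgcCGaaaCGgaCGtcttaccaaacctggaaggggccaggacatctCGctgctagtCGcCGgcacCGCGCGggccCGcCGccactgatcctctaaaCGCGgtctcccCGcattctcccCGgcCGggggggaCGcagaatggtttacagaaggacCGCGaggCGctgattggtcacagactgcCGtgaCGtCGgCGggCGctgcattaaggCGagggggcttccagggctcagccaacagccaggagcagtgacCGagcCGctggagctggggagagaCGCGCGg
Gsn, chr2:35256109-35256408, plus strand: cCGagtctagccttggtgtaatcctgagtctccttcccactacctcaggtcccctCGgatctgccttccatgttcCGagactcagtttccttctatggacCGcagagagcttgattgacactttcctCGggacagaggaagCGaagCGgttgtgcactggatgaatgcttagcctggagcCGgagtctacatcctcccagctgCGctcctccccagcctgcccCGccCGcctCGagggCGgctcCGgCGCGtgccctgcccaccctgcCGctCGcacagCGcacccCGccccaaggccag
Aqp1, chr6:55336049-55336348, plus strand: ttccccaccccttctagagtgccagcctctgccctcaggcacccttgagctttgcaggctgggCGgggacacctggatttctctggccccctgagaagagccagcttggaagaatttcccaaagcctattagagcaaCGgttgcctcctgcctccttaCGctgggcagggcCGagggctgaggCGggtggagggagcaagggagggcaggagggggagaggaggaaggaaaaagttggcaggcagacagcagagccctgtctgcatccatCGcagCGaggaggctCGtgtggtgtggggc
The CG dinucleotide, which reads the same on both strands, occurred 1 time in Ubl4b, 3 times in Pmp22, 7 in Prelp, 2 in Hmx2, 31 in Lhx1, 20 in Gsn and 8 in Aqp1. Over 13117 promoters of the same length, matched by symbol with a start within 500 bp of the GENCODE start, the median was 16 and 96.9% held at least 1. The H2AK119ub1-only genes thus include a CG-poor and a CG-rich window.

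In hippocampal gene bodies both marks met in 63 of 17724 genes (0.355%) with a body of at least 2 kb, where each library had to cover at least 10% of the body beyond 2 kb from the start. H3K36me2 passed in 1043 genes (5.88%) and H2AK119ub1 in 739 (4.17%), for a product of 43.5 genes. The count became 454 without H2AK119ub1 replicate 1, 161 without H3K36me2 replicate 2 and 104 without H3K36me2 replicate 1. Prelp, a leucine-rich proteoglycan of the extracellular matrix, had 54.9% and 48.4% H3K36me2 and 82.4% and 62.5% H2AK119ub1, and its lowest pair shared 2.60 kb. Prdm16, a zinc finger regulator of neural stem cells, had 23.3% and 17.7% H3K36me2 and 32.9% and 77.8% H2AK119ub1, with 23.4 to 53.0 kb shared. Disc1, a scaffold protein of developing neurons, had 13.1% and 10.4% against 11.7% and 51.0%. It shared 5.6 to 14.8 kb, at lowest 2.72% of the body. Unc5b, a netrin receptor, had 22.1% and 14.0% against 21.8% and 72.2%. It shared 2.8 to 11 kb, at lowest 4.18% of the body. In all of these H2AK119ub1 replicate 1 and replicate 2 differed widely, Prelp excepted. By the lowest shared percent of the body, Rgs3 and Xxylt1 ranked above Unc5b. Col27a1, Smad3 and Ky ranked between Unc5b and Disc1. The 63 genes were long, with a median of 121.0 kb against 23.1 kb for all genes, and 42 of them were in the longest length quintile. The 980 genes with H3K36me2 and not H2AK119ub1 were also long, with a median of 63.8 kb. The 676 with H2AK119ub1 and not H3K36me2 had 22.6 kb. H3K36me2 alone passed in 14.3% of the longest quintile and 0.931% of the shortest, whatever the other mark. In the longest quintile the count with both was 1.53 times the product of the shares, and in the 4 shorter ones 0.767 to 1.09 times. The marks shared bases in every pair in 34 of the 63.

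Some hippocampal genes had one mark over most of their length and none of the other. Among genes with H2AK119ub1 and no H3K36me2 base, Hmx2, Lhx1 and Osr2, all transcription factors of development, had 100% of the promoter and of the body under H2AK119ub1 and under H3K27me3 in both libraries. Among genes with H3K36me2 and no H2AK119ub1 base, Ucp2, a mitochondrial carrier, had 63.1% and 77.8% of the body covered and 0% of the promoter. Slc25a45, also a carrier, had 69.1% and 72.4% of the body and 20.2% and 70.2% of the promoter covered. Neither Ucp2 nor Slc25a45 had an H3K27me3 base.

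Neurospheres had both marks at 333 promoters (1.60%), out of 2567 with H3K36me2 (12.3%) and 2412 with H2AK119ub1 (11.6%), for a product of 297.6. The count became 1335 without H2AK119ub1 replicate 2, and 543 and 537 without H3K36me2 replicate 1 or 2. In 252 of the 333 the marks shared bases in every pair. Of the 333, 50.2% were CpG-rich, near the 45.7% of all promoters. The share was 35.5% for promoters with H3K36me2 and not H2AK119ub1, and 57.8% for those with H2AK119ub1 and not H3K36me2. Both marks covered the whole 4000 bp window in every library at Nav2 (a microtubule-associated protein of neurons), Gsn (the actin-severing protein gelsolin), Aqp1 (a water channel), Lrp5 (a Wnt co-receptor), Ntsr2 (a neurotensin receptor) and Fgfr4 (a fibroblast growth factor receptor). These windows differed in H3K27me3. It covered 100% of the Aqp1 and Fgfr4 promoters in both libraries, 15.5% and 25.5% of the Gsn promoter, and 0% of the Nav2 and Lrp5 promoters. H3K27me3 was present in both libraries at 130 of the 333 (39.0%), at 73.9% of the promoters with H2AK119ub1 and not H3K36me2, at 7.07% of those with H3K36me2 and not H2AK119ub1, and at 22.9% of all promoters.

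In neurosphere gene bodies both marks met in 943 genes (5.32%), out of 4876 with H3K36me2 (27.5%) and 2212 with H2AK119ub1 (12.5%), for a product of 608.5. The ratio of 1.55 to the product was 1.31 to 1.47 within each length quintile. Without H2AK119ub1 replicate 2 the count became 2682. Shb (ENSMUSG00000044813.15, chr4:45423278-45532470) had 96.6% and 97.5% of the body under H3K36me2 and 100% and 98.4% under H2AK119ub1, with at least 102.5 kb shared, and 86.7% and 96.4% under H3K27me3. Camk1g, a calmodulin-dependent kinase, had 82.7% and 82.7% against 90.0% and 94.5%. Htr6, a serotonin receptor, had 100% and 100% against 100% and 77.8%. In Bahd1, which encodes a heterochromatin protein, H3K36me2 covered 85.0% and 66.9%, H2AK119ub1 100% and 87.8%, and H3K27me3 0% of the body, while H3K27me3 covered 70.6% of its promoter in both libraries. The marks shared bases in every pair in 791 of the 943.

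Genes with both marks in both sources numbered 2 at the promoter and 29 in the body. The 2 were P2ry6, a receptor for UDP, and Prelp, which are 14.3% of the 14 hippocampal genes and 0.601% of the 333 neurosphere genes, against 1.60% of all promoters in the neurosphere set and 0.0673% in the hippocampal set. The 29 are 46.0% of the 63 hippocampal genes and 3.08% of the 943 neurosphere genes, against 5.32% of all genes in the neurosphere set and 0.355% in the hippocampal set. Of the 63, 42 were in the longest length quintile, where 12.5% of genes had both marks in neurosphere bodies. P2ry6 had 26.2% and 26.2% of its promoter under H3K36me2 and 48.8% and 98.8% under H2AK119ub1 in hippocampus, and 78.8% and 93.8% under H3K36me2 and 98.8% and 100% under H2AK119ub1 in neurospheres. Smad3, which carries TGF-beta signals, had 27.6% and 23.6% H3K36me2 and 19.4% and 76.2% H2AK119ub1 over the body in hippocampus, and 88.1% and 65.5% against 98.5% and 62.6% in neurospheres. Col27a1, a fibrillar collagen, had 15.8% and 15.8% against 47.4% and 87.7% in hippocampus, and 61.5% and 16.5% against 93.8% and 83.9% in neurospheres. Itgb5, an integrin subunit, and Sept9, a septin, were others.

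Hox genes and factors of non-neural lineages carried H2AK119ub1 at most of their promoters, against 4.94% of all promoters in hippocampus and 11.6% in neurospheres. For H3K36me2 the shares over all promoters were 1.36% and 12.3%, and for both marks together 0.0673% and 1.60%. With shares that low for both marks, lists of 20 or 21 promoters can be expected to hold few or none. Hox genes, which pattern the body axis and are silent in forebrain, had H2AK119ub1 in both libraries at 38 of 39 promoters in hippocampus and 39 of 39 in neurospheres, and H3K36me2 at 0 of 39 in each. Factors of non-neural lineages had H2AK119ub1 at 14 of 21 promoters in hippocampus and 16 of 21 in neurospheres, H3K36me2 at 0 and 2, and both marks at 0 in each source. Cytoplasmic ribosomal protein genes, active in every cell, had neither mark at 40 promoters in hippocampus and 1 with each in neurospheres. Neuron and synapse genes had H2AK119ub1 at 1 of 35 promoters in hippocampus and 7 of 35 in neurospheres, and H3K36me2 at 0 and 5. Both marks were at 0 and 1 of these promoters, the latter that of Kcnma1. Marker genes of microglia, endothelium, blood and meninges had H2AK119ub1 at 2 of 20 promoters in hippocampus and 4 of 20 in neurospheres, H3K36me2 at 0 and 2, and both at none. How these small counts differ from the shares over all promoters was not tested. Islands do not measure expression, so the labelled tissue could not be checked against its markers beyond these counts.

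Genes of the Wnt pathway, which steers hippocampal development and which the study examined for effects of the deletion, carried both marks in a few cases, against 1.60% of all promoters in neurospheres. Over all promoters, the share with H2AK119ub1 was 4.94% in hippocampus and 11.6% in neurospheres, and that with H3K36me2 1.36% and 12.3%. Of 19 Wnt ligands, 5 had H2AK119ub1 at the promoter in hippocampus and 13 in neurospheres. Among these ligands 0 and 2 had H3K36me2 there, and 0 and 1 had both marks. That gene was Wnt5b, with 91.3% and 100% of the promoter under H3K36me2 and 91.3% and 100% under H2AK119ub1, and 100% under H3K27me3 in both libraries. Of 38 receptors, antagonists and effectors, 3 had both marks at the neurosphere promoter: Lrp5, Dkk3 and Sfrp2. Dkk3, a secreted protein of the Dickkopf family, had 100% under each mark in all 4 libraries, and Sfrp2, a secreted Frizzled-related protein, had 72.0% and 38.0% H3K36me2 against 100% and 38.0% H2AK119ub1. In hippocampus none of the 38 promoters had both, while 0.0673% of all promoters did. In the body 1 of 33 had both, while 0.355% of all bodies did. It was Tcf7l2, a transcription factor that binds beta-catenin (16.6% and 12.1% against 20.4% and 68.7%). Its lowest pair shared 1.40 kb, or 0.737% of the body. In neurospheres 4 of 33 bodies had both, while 5.32% of all bodies did. Among them Tcf7l2 had 84.9% and 88.4% against 54.7% and 16.1%.

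Neural progenitor factors had both marks at 3 of 25 neurosphere promoters, against 1.60% of all, and at 0 of 25 hippocampal ones, where only 0.0673% of all promoters had both. Nfib, a nuclear factor of glial and hippocampal development, had 88.7% and 100% H3K36me2 against 93.7% and 88.7% H2AK119ub1. Lhx2, which specifies cortex and hippocampus, had 43.0% and 53.0% against 98.0% and 100%. Emx2, a homeobox gene needed for the dentate gyrus, had 10.7% and 5.72% against 100% and 35.0%, sharing at most 429 bp. Lhx2 and Emx2 had no H3K36me2 base in the body. Of 14 glial genes, 1 had both at the neurosphere promoter: Pdgfra, the receptor that marks oligodendrocyte precursors (27.7% and 47.7% against 100% and 100%). In hippocampus 1 of 11 glial bodies had both, while 0.355% of all bodies did. It was Mbp, a myelin protein, with 0 bp shared in its lowest pair. In neurospheres 2 of 11 glial bodies had both, Pdgfra and Aldh1l1, while 5.32% of all bodies did. Their lowest pairs shared 0 bp and 20800 bp of the body. Among H3K36 and Polycomb enzymes 2 of 36 neurosphere bodies had both, while 5.32% of all bodies did. Kdm2b itself was 1 of these (40.6% and 28.7% against 50.2% and 14.2%) and shared between 0 and 22.4 kb, depending on the pair.

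The knockout libraries gave higher ratios in hippocampus and a wider range in neurospheres. In cKO hippocampus the 4 pairs gave 1.63 to 1.96 times the expectation over the autosomes, above the control range of 1.28 to 1.40, and in cKO neurospheres 1.01 to 2.90, around the control range of 1.75 to 2.87. The cKO neurosphere pairs split by H3K36me2 library, with 2.70 and 2.90 for replicate 1 and 1.01 and 1.08 for replicate 2. Covered length also differed: cKO hippocampal H2AK119ub1 covered 37.3 Mb and 246.8 Mb. Both marks were at 18 promoters and in 124 bodies in cKO hippocampus, where the products of the shares were 12.5 and 52.8. In cKO neurospheres they were at 306 promoters and in 1200 bodies, with products of 357.3 and 1148.3. The ratios to the products were 1.44 and 2.35 in cKO hippocampus (control 1.01 and 1.45). They were 0.856 and 1.05 in cKO neurospheres (control 1.12 and 1.55). Of the 14 control promoters 0 were among the 18, which are 0.0865% of all promoters. Of the 63 control bodies 24 were among the 124, or 38.1% and 19.4%, against 0.700% of all bodies in the cKO set and 0.355% in the control set. Of the 333 neurosphere promoters 54 were among the 306 (16.2% and 17.6%, against 1.47% and 1.60% of all promoters). Of the 943 bodies 453 were among the 1200 (48.0% and 37.8%, against 6.77% and 5.32% of all bodies). The difference between genotypes was not tested.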

How the data were processed

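The authors trimmed reads with cutadapt, aligned them to mm10 with Bowtie2 2.4.5, removed duplicates and ran SICER per library against input (window 200 bp, gap 600 bp, FDR 0.01). The deposited files list each island with its read count, not normalized. Tags were counted without molecular identifiers. Positions outside islands carry no value, so an absent island is not a count of 0.

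Island positions were analyzed here with Python 3.11.15, numpy 2.4.6 and pandas 2.3.3. Groups came from the sample labels. Compartments used GENCODE vM21 protein-coding genes and the assembled autosomes of GRCm38.p6. Expected overlap was the product of both covered shares within a compartment, and GC classes were quintiles of 5000 bp windows. A promoter was called from 1 bp, and a body from 10% of the bases beyond 2 kb from the start, in both libraries of a mark. In the gene classes, a gene that failed this call counted as without that mark. Marks were compared by 2-sided exact permutation tests with Benjamini-Hochberg adjustment. Interval code was tested on simulated islands.

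The libraries, gene lists and the rule for named genes were chosen with earlier results of these data known. Genes were named by shared bases in the lowest library pair, by presence in all 8 libraries, by list membership, or by coverage with one mark and none of the other; Notch1, Vav2, Gse1, Cfap61 and Pitx1 were named after their regions were seen.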

Additional observations from a re-analysis of the deposited data

How the results depend on the processing

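Overlap is given here as the mean log2 ratio of shared bases to expectation, in the order autosomes, promoters, gene bodies and intergenic DNA. It was 0.43, 0.15, 0.50 and 0.46 in hippocampus and 1.07, 0.46, 0.84 and 1.33 in neurospheres. For bases called in both libraries of each mark, an alternative added after seeing the data, the hippocampal values were -0.39, -1.76, -0.087 and -0.42, and with the expectation also within GC quintiles -1.19, -2.02, -0.79 and -1.48. The latter gave -0.037, -0.12, 0.073 and -0.17 in neurospheres. Pairs with the expectation within GC quintiles, also added later, gave -0.095, -0.025, 0.064 and -0.25 in hippocampus, and 0.14, 0.15 and 0.13 for neurosphere autosomes, gene bodies and intergenic DNA. Over bases with an island in at least 1 of 24 libraries the values were -0.45, -0.61, -0.20 and -0.56 in hippocampus and 0.20, -0.30, 0.13 and 0.31 in neurospheres, where the smaller universe raises the expectation by construction. At equal covered length they were 0.16, -0.42, 0.34 and 0.17 in hippocampus and 1.24 in neurosphere gene bodies. With chromosome X the hippocampal values were 0.51 over the genome and 0.57 in intergenic DNA. For the other changes the cause was not tested.

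Leaving out each library in turn gave 0.37 to 0.48, -0.075 to 0.37, 0.45 to 0.56 and 0.40 to 0.52 in hippocampus, and 0.84 to 1.30, 0.16 to 0.76, 0.68 to 1.00 and 1.03 to 1.63 in neurospheres.

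The difference in log2 enrichment between marks kept its direction in 55 of 60 alternatives. Not all of the 60 could change it. Treating replicate numbers as a block gives the main mean difference by arithmetic. Leaving out islands over 500 counts per kb removed 0 islands in hippocampus and at most 1 per neurosphere library. The exceptions were all in neurosphere intergenic DNA, where the difference was 0.0083: it became -0.021 with islands of at least 2 kb, -0.023 with promoters of 1 kb on each side, -0.0086 with chromosome X, and -0.13 to 0.15 on leaving out a library (below 0 without H2AK119ub1 replicate 1 or H3K36me2 replicate 2). Replicate numbers were shared between marks, but the labels do not say that a number marks a common lysate. Treated as a block, they gave promoter differences of -2.58 in hippocampus (-2.39 and -2.77 for the numbers 1 and 2) and -1.74 in neurospheres. These means are the main ones by construction. The exact sign-flip p was 0.5, the smallest that 2 pairs allow. The block gave overlaps of 0.43 and 1.16 over the autosomes, with no change of direction.

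Genes with both marks at the hippocampal promoter went from 14 to 0 at equal covered length, to 3 with promoters of 1 kb on each side, to 3 and 0 when at least 25% or 50% of the promoter had to be covered, and to 29 to 68 on leaving out a library. The hippocampal body count went from 63 to 3 at equal covered length, 1285 from 1 bp covered, 2 at 25% covered and 73 to 454 on leaving out a library. In neurospheres the promoter count went from 333 to 29, 175, 176 and 88 under the same promoter alternatives and to 437 to 1335 on leaving out a library. The neurosphere body count went from 943 to 150, 2546 and 304 under the same body alternatives and to 1034 to 2682 on leaving out a library. Depths are unknown, so a base without an island cannot be read as free of the mark.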
